A study of Mus musculus with 12 samples.

Results

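Long noncoding RNAs (lncRNAs) are transcripts of more than a short minimum length that are not known to be translated. Here they were taken as genes of the GENCODE M21 types lincRNA, antisense, processed_transcript, sense_intronic, bidirectional_promoter_lncRNA and macro_lncRNA. Members were chosen by their measured level, a mean of at least 3 counts-per-million (CPM, the estimated count of a gene over the sum of its library) over all 12 libraries. Of 9882 genes of these types among 55385 genes in the files, 203 met this rule. They comprised 89 lincRNAs, 49 antisense genes, 53 processed transcripts, 5 sense intronic genes, 7 bidirectional promoter lncRNAs and 0 macro lncRNAs. The lowest members were AI506816 at 3.04, Gm42890 at 3.04 and A630072M18Rik at 3.02 CPM. Gm48765 at 2.99, 2810013P06Rik at 2.96 and E430024I08Rik at 2.94 CPM lay just outside. All 203 passed the filter on low counts and were tested among 15090 genes.

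Primary hepatocytes, the parenchymal cells of the liver freshly isolated from 3 mice, were plated on collagen in Williams' E medium that held 100 nM dexamethasone, 10% serum, 5% of an insulin, transferrin and selenium mix and 2 mM glutamine. Small interfering RNA (siRNA) was applied for 48 h. The groups were a control (siCon), knockdown of Hnf4a (siHnf4a), knockdown of Cebpa (siCebpa) and the combination of the pair (siHnf4a siCebpa, the double knockdown), and each mouse gave 1 library to each of the 4 groups. The labels state no strain, sex, age or genotype. Their titles number the cultures 1 to 3, and each number was read here as a mouse. HNF4A, a nuclear receptor, and C/EBPA, of the leucine zipper class, are DNA-binding regulators of liver genes.

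LncRNAs act in several ways. Some stay in the nucleus and scaffold bodies or chromatin, such as Neat1 in paraspeckles, Malat1 in speckles and Xist on the inactive X chromosome. Others are spliced precursors whose introns release small nucleolar RNAs (snoRNAs), which guide the modification of ribosomal RNA, while the spliced remainder is often short-lived. Many more are transcribed from the promoter of a protein-coding gene or across it from the other strand, and have no known role.

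Counts per library summed to between 22453445 and 25008195. Hnf4a was at 145 to 294 CPM in siCon and at 46.8 to 60.2 in siHnf4a (log2 fold change -2.08 ± 0.28 SE, adjusted p = 0.000953, edgeR). Cebpa was at 180 to 211 CPM in siCon, 24.7 to 32.5 in siCebpa and 83.8 to 113 with both siRNAs, so that every double knockdown library held more Cebpa transcript than any siCebpa library. Hepatocyte markers such as Alb (3134 to 9511 transcripts-per-million, TPM, a level scaled by length and depth) and Ttr (188 to 656 TPM) were abundant in every library, while Cyp2e1 stayed between 0.311 and 2.59 TPM and Fabp1 between 0.165 and 15.1. Of the macrophage markers, Cd68 was at 61.5 to 551 TPM and the other 11 summed to 3.32 to 25.7 TPM, with Timd4 at no more than 0.0615. Fewer cells of a type and less RNA per cell cannot be told apart in such bulk samples.

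Much of the lncRNA signal came from genes that share sequence with others, so sequences are shown first. Words of 31 bases (31-mers, the unit by which kallisto assigns reads) were compared between each member's transcripts and those of all other annotated genes. The median member shared 12.5% of its words with other genes, 47 of 203 shared at least 50%, and 16 shared none. Reads from shared words are divided between genes by an estimate, and a level or change of such a member can belong in part to its partners.

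Gm29408 had the highest length-normalised level of all members, a mean of 15886 TPM (11795 to 24164). Its only transcript of 216 bases (lincRNA, chr9:90938980-90939195, plus strand, GRCm38, no protein-coding gene within 10 kb) is printed in full because 212 of its bases, 98.1%, are identical to a stretch of another lincRNA, Gm26809, which was not analysed here. The 4 capitals are the bases that differ.
Gm29408: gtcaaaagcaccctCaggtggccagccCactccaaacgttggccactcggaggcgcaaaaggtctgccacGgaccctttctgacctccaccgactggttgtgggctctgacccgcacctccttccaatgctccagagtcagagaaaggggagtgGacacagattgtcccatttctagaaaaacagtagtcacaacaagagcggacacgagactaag
Of its 31-mers 51.6% occur unchanged in Gm26809. Further members belong to the same family. Gm20186, at a mean of 2943 TPM, shared 79.0% of its words with Gm26809 and 34.2% with Gm12840 (1712 TPM). By TPM the 12 highest members were Gm29408, Gm20186, Gm48942 (2299), Gm12840, Gm20400 (604), Gas5 (374), Cct6a (357), 2410006H16Rik (256), 1110038B12Rik (254), AC160336.1 (252), AW112010 (208) and Ifi30 (206), against a median of 8.21 TPM over all members.

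By counts the order was different. AC160336.1, an unspliced lincRNA of 93147 bases (chromosome 14, 44544055 to 44637201, minus strand), took 1.06% to 2.32% of all counts of a library, more than all other members together (0.803% to 1.04%). Of its words 18.8% also occur elsewhere, spread over 7277 other genes. It was at 17635, 16559 and 21274 CPM in siCon, 12010, 16019 and 17282 in siHnf4a, 14244, 18742 and 23237 in siCebpa, and 10561, 16470 and 18068 in the double knockdown. The groups overlap, siCebpa lay below siCon in mouse 1 and above it in mice 2 and 3, and its change was not past the threshold in any comparison with siCon. Only 78 members reached 10 CPM and 19 reached 100 CPM.

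**Figure D1:**
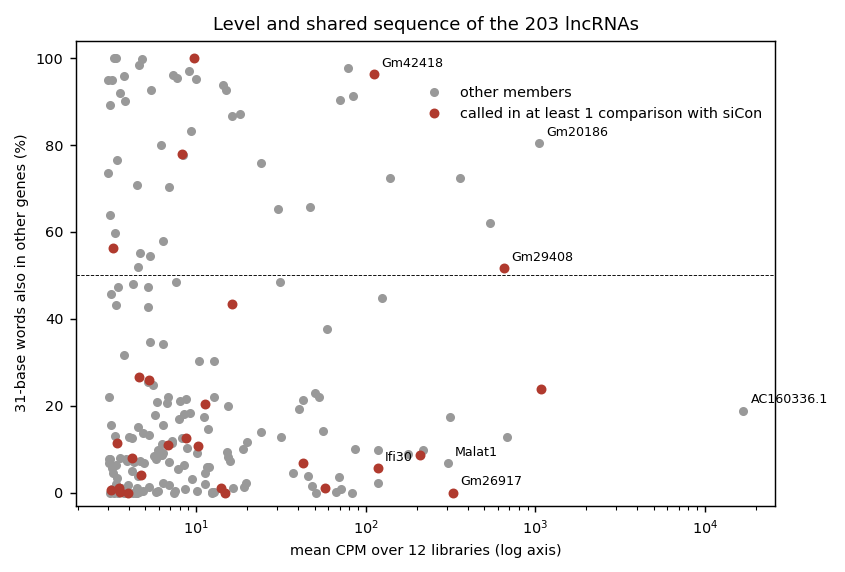
Share of each member's 31-base words that also occur in other genes (percent, y axis) against its mean CPM over 12 libraries (log axis), 1 point per gene, red where a gene was called in at least 1 comparison with siCon and with a dashed line at 50%. Of 203 members 47 lie at or above the line, among them Gm20186, Gm29408 and Gm42418.

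The names cover more than noncoding genes. In RefSeq, 106 members are listed as lncRNA, 14 as protein-coding, 2 as pseudogenes, 3 as transcribed pseudogenes, and 78 symbols found no match. The 14 include Ifi30, Cct6a (a subunit of the cytosolic chaperonin), Tmem134, Ptpmt1 and Tctn2. By position, 75 members overlapped a protein-coding gene on the opposite strand, 16 overlapped one on the same strand, 21 lay head to head with one, 29 lay within 10 kb of one, and 62 had none within 10 kb. Exons overlapped those of a protein-coding gene on the opposite strand in 66 members and on the same strand in 12. Whether the counting used strand is not given in the sources used here, so reads of a member and of an overlapping partner on the other strand cannot be told apart.

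Knockdown of Hnf4a changed 21 of the 203 lncRNAs (10.3%), 13 upward and 8 downward, where 14.5% of all 15090 tested genes and 17.9% of protein-coding genes with at least 3 CPM were called (edgeR quasi-likelihood test on all 12 libraries, Benjamini-Hochberg adjusted p under 0.05). Upward calls made up 6.4% of members against 7.24% of all genes, and downward calls 3.94% against 7.29%. The median log2 fold change was 0.00339 over the members and 0.000173 over all tested genes. The sum of 8 stellate cell and fibroblast markers, all detected in each group, was 71.8 to 79.6 TPM among siCon libraries. It was lower, with no overlap, among those of siHnf4a (45.8 to 61.8), siCebpa (41.9 to 69.3) and the double knockdown (41.8 to 67.1). Sums of 6 cholangiocyte and 8 endothelial markers overlapped between the groups, but in each mouse they were lower in every knockdown library than in siCon. In siCebpa the cholangiocyte sums were 24.7, 93.6 and 108 TPM against 66.5, 207 and 282 in siCon, and the endothelial sums 24.8, 38.6 and 54.2 against 41.5, 58.5 and 73.0. The part of these in the calls of all 3 comparisons was not tested. With mouse as a block 54 members were called (29 higher, 25 lower; 30.0% of all genes), including all 21. Leaving out siCon replicate 2 or 3 left 10 and 11 calls, and leaving out siHnf4a replicate 1, 2 or 3 left 13, 11 and 13. The 13 upward calls include Gm12059, Gm34934 and Snhg14, which were below 3 CPM in every siCon library, and Gm43042, which mostly was. The values that chose these as members also enter their calls, which are descriptions. The calls of 10 members, Gm12059 and Gm34934 among them, held in all 19 alternatives, and these are described first.

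The largest fall was that of Gm30692, a lincRNA of 801 exonic bases with no protein-coding gene within 10 kb (chromosome 8, 24412179 to 24416937, plus strand). It was at 20.2, 20.4 and 47.2 CPM in the siCon libraries of mice 1, 2 and 3 and at 3.63, 2.14 and 3.82 CPM in siHnf4a. The highest siHnf4a library was thus well below the lowest siCon library, and the fold change was -3.21 ± 0.47 on the log2 scale (adjusted p = 0.00144, edgeR). In siCebpa it was at 15.0, 15.0 and 30.8 CPM, each value below that of siCon in the same mouse, and the difference did not pass (-0.47 ± 0.42, adjusted p = 0.588). The double knockdown had 2.44, 2.18 and 4.39 CPM and was lower than siCon (-3.31 ± 0.47, adjusted p = 0.00121) and lower than siCebpa (-2.83 ± 0.47, adjusted p = 0.00327). Only 1.04% of its words occur in other genes.

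Gm15638, an antisense gene within Phldb2 whose words occur in no other gene, had 5.20, 5.85 and 6.36 CPM in siCon and 2.86, 1.76 and 1.45 in siHnf4a (-1.54 ± 0.29, adjusted p = 0.00563). Phldb2 itself, which encodes a membrane-anchored protein of the cell cortex, had 116, 261 and 332 CPM in siCon and 68.5, 118 and 172 in siHnf4a, a difference that missed the threshold (-1.01, adjusted p = 0.255) and passed it with mouse as a block (-0.97, adjusted p = 5.95e-05). Gm17201 fell from 3.36, 3.73 and 4.19 CPM to 2.11, 1.73 and 2.11 (-0.94 ± 0.18, adjusted p = 0.00651). This antisense gene lies across Ankrd52, an ankyrin repeat subunit of a protein phosphatase complex, and shares 56.4% of its words with it. Ankrd52 fell as well (-0.84, adjusted p = 0.00143), from 128, 175 and 153 CPM to 80.8, 90.6 and 86.7, and the part of each in the other's reads cannot be told apart. Snhg17, a snoRNA host, went from 50.2, 53.7 and 47.3 CPM to 37.0, 37.1 and 36.2 (-0.47 ± 0.09, adjusted p = 0.00556).

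Ifi30 had the smallest adjusted p of the members in siHnf4a. It encodes a lysosomal thiol reductase of antigen processing and is protein-coding in RefSeq, though the GENCODE release lists it as a processed transcript (chromosome 8, 70762774 to 70766663, minus strand). It stood at 78.2, 65.4 and 63.9 CPM in siCon and at 168, 157 and 204 CPM in siHnf4a (1.33 ± 0.14, adjusted p = 0.000225). In siCebpa it was at 54.2, 45.0 and 42.1 CPM, below siCon in each mouse. The difference of -0.50 ± 0.14 missed the threshold (adjusted p = 0.0712) and passed it with mouse as a block (adjusted p = 0.0192). The double knockdown, at 170, 161 and 199 CPM, overlapped siHnf4a. The sums of 12 macrophage markers overlapped between the groups, with 117 to 353 TPM in siCon, 132 to 560 in siHnf4a and 71.2 to 449 in siCebpa, and without Cd68 with 7.94 to 25.7, 3.32 to 11.9 and 4.29 to 9.68 TPM. Within each mouse the sum of all 12 was higher in siHnf4a than in siCon (560 against 353, 171 against 117 and 132 against 126). Without Cd68 it was lower in each mouse, at 8.55, 3.32 and 11.9 in siHnf4a and 4.54, 4.29 and 9.68 in siCebpa against 15.1, 7.94 and 25.7 TPM in siCon. Their part in the change of Ifi30 was not tested.

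Gm49172, a processed transcript antisense to Ano6, was at 7.28, 6.49 and 6.36 CPM in siCon and 13.7, 13.9 and 13.1 in siHnf4a (1.00 ± 0.16, adjusted p = 0.00231). Ano6, a phospholipid scramblase of the plasma membrane, rose beside it from 90.4, 95.3 and 86.8 to 161, 181 and 174 CPM (0.90, adjusted p = 0.0013), and their exons overlap over 122 bases. 2210408F21Rik, with no protein-coding gene within 10 kb, rose from 2.80, 2.99 and 3.37 CPM to 6.77, 6.20 and 5.86 (1.02 ± 0.14, adjusted p = 0.00126). Gm12059 rose from 1.60, 2.30 and 1.85 CPM to 4.11, 4.56 and 3.78 (1.09 ± 0.24, adjusted p = 0.0117). Like Gm34934 and Snhg14, it is 1 of 7 members that were below 3 CPM in every siCon library and are members through their levels in the other groups. The values that chose such members also enter their calls against siCon, which are descriptions.

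Gm34934, a lincRNA whose gene starts 97 bases from that of Samd4 on the other strand, was at 1.80, 1.73 and 1.22 CPM in siCon and 5.52, 4.86 and 3.74 in siHnf4a (1.55 ± 0.28, adjusted p = 0.00503). Samd4, an RNA-binding repressor of translation, rose too, from 45.4, 56.5 and 48.6 CPM to 82.6, 109 and 123 (1.05, adjusted p = 0.00364). In both genes every siHnf4a library exceeded every siCon library. 9530034E10Rik, an antisense gene of 502 exonic bases within St3gal3 that shares no word with another gene, was at 9.00, 8.79 and 6.36 CPM in siCon and 18.8, 17.6 and 18.3 in siHnf4a (1.16 ± 0.18, adjusted p = 0.00223). St3gal3, a sialyltransferase gene, did not pass (-0.03, adjusted p = 0.965).

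**Figure D2:**
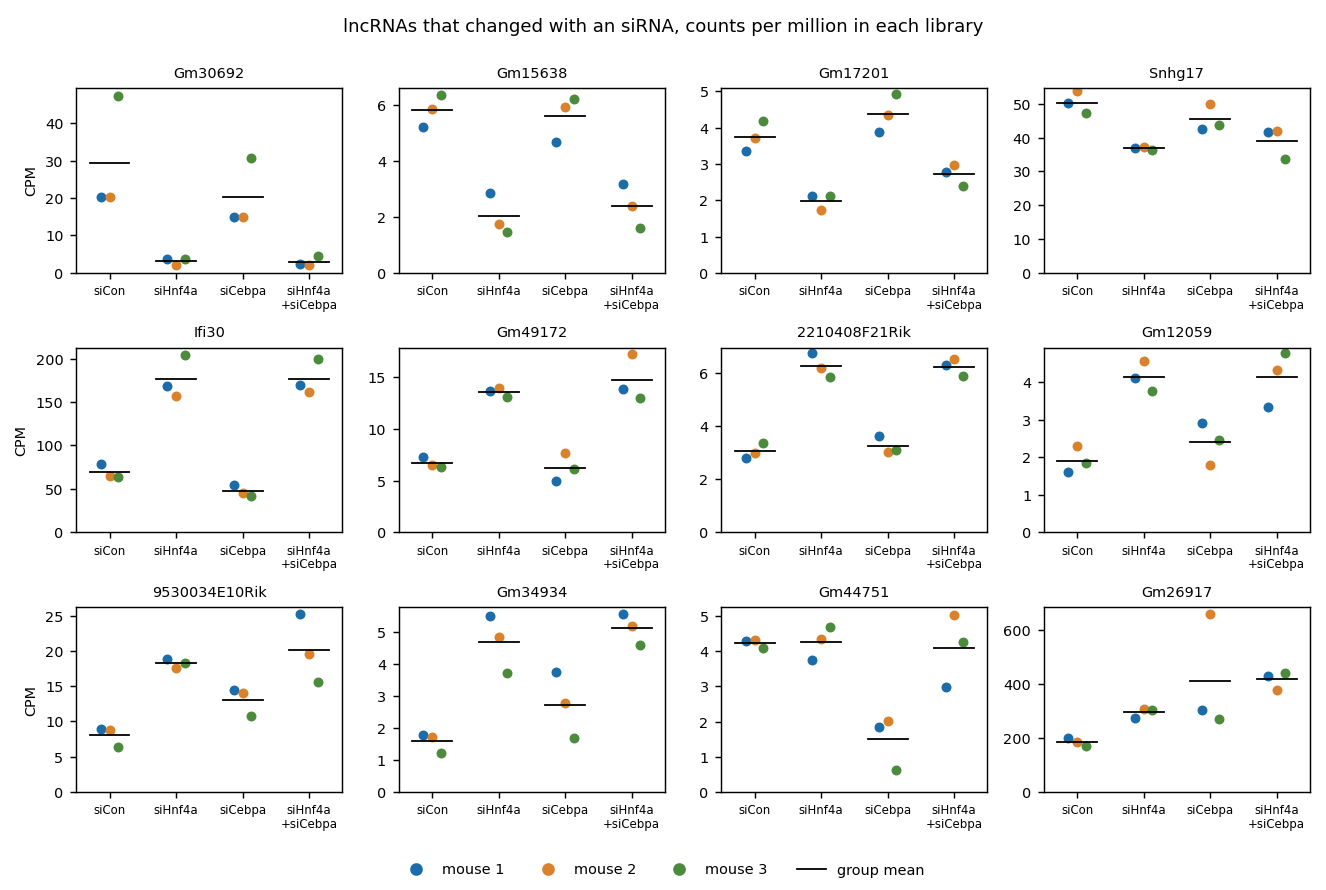
CPM (linear axis from 0) of 12 members in the 12 libraries, by siRNA group, with 1 point per mouse and a bar at the group mean. Gm30692 is at most at 3.82 CPM in siHnf4a and at 20.2 or more in siCon, and the siHnf4a and double knockdown points of Ifi30, Gm49172 and 2210408F21Rik lie above all siCon points.

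The other 11 calls ended when single libraries were left out. Among lower members, Gm48942 (-0.80), Gm29408 (-0.66) and Gm20400 (-0.66), all among the 5 highest members by TPM, fell, as did 5430416N02Rik (-0.51). Gm20186 and Gm12840 of the same sequence family were called lower only with mouse as a block (-0.54 and -0.35, adjusted p = 0.00155 and 0.042). Among higher members, Gm43042 had the largest change (2.44 ± 0.54, adjusted p = 0.0135), with 3.92, 1.93 and 1.99 CPM in siCon and 8.26, 17.6 and 17.3 in siHnf4a. With siCon values mostly below 3 CPM, Gm43042 too is a member through its levels in the other groups, which also enter this call. It shares 77.9% of its words with 571 other genes, so its reads cannot be told apart from theirs. Gm16685, antisense to Il7, rose by 1.19 ± 0.35, Gm11613 by 0.99, 9530082P21Rik by 0.96, 1810064F22Rik by 0.71, Snhg14 by 0.59 and 1700020I14Rik by 0.49.

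In siHnf4a 14.5% of all tested genes were called, and a larger share of protein-coding genes with at least 3 CPM. Of the 13 called members that have a tested protein-coding gene over or within 10 kb of them, 5 had a partner that was called too. In 4 of these the pair moved in the same direction: Gm49172 with Ano6, Gm34934 with Samd4, Gm17201 with Ankrd52, and 9530082P21Rik with Flywch1 (0.32, adjusted p = 0.0114). Gm11613 rose where Mllt6 fell (-0.38, adjusted p = 0.0183). Gm34934 is a member through its levels in the knockdown groups, and Gm17201 shares words with Ankrd52, so these pairs are descriptions. The log2 fold changes of member and neighbour had a Pearson r of 0.127 across 126 pairs, a description across genes that are not independent.

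Promoters of called members were read from RefSeq (GRCm38.p6), which holds entries for 102 of the 203 symbols, as windows from 250 bases before to 50 after the annotated start. They were searched on both strands for CAAAGTCCA, the HNF4 site, for 2 copies of AGGTCA 1 base apart, a repeat that nuclear receptors bind, for TTGCNNAA, the C/EBP site, and for TATAAA, the TATA box. The HNF4 letters occurred in 1 of 121 member promoters (0.826%) and in 0.475% of 32851 promoters of all genes, the repeat in 0 of 121 and in 0.0396%. The C/EBP letters occurred in 8 of 121 (6.61%) against 10.8%, and the TATA box in 14.9% against 13.6%. Among the 12 called members with an entry, Ifi30 and 9530082P21Rik held the C/EBP letters, and none held the HNF4 letters or the repeat. Both of these promoters are printed with the matching letters in capitals. Those of Gm34934, which it shares with Samd4, and of 9530034E10Rik, the member called in all 3 comparisons with siCon, hold none of the 4 motifs. A match is a description of letters, and binding was not measured.
Ifi30 (chr8:70766614-70766913, minus strand): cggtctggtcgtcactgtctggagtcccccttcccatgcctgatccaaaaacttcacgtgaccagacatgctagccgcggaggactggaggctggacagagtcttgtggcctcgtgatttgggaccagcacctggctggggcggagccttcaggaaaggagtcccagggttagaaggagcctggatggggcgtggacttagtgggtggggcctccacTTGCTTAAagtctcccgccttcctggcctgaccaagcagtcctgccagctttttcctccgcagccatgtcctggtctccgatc
9530082P21Rik (chr17:23748986-23749285, plus strand): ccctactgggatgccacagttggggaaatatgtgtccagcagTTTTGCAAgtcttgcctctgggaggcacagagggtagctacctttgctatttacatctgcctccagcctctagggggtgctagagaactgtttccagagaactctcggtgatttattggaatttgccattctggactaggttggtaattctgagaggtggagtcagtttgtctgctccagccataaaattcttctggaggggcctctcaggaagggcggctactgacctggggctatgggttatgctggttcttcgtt
Gm34934 (chr14:46882750-46883049, minus strand): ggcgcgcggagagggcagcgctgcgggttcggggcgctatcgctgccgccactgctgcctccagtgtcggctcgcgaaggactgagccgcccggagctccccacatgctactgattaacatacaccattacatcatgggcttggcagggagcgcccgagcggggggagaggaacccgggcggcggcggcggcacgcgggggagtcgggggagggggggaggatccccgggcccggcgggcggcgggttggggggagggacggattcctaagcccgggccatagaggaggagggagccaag
9530034E10Rik (chr4:117974784-117975083, plus strand): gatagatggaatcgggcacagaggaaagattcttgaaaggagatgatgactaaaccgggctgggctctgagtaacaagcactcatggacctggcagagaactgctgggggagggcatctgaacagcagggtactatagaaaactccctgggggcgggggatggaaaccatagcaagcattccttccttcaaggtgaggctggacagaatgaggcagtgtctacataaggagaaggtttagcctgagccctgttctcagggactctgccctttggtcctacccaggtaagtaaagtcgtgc
The letters in Ifi30 start 33 bases before the annotated start and those in 9530082P21Rik 208 bases before it.

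In siCebpa 5 of 203 (2.46%) were called, against 4.67% of all tested genes. Higher calls were 4 (1.97%, all genes 2.94%) and lower calls 1 (0.493%, all genes 1.72%). With mouse as a block there were 24 (12 higher, 12 lower; 16.8% of all genes), DESeq2 called 10, and the 6 compared libraries alone gave 1. None of the 5 calls held in all 19 alternatives. Without siCon replicate 2 or 3 the count was 0, without siCon replicate 1, siCebpa replicate 2 or siCebpa replicate 3 it was 2 each, and it was 1 to 3 without any siHnf4a library or the double knockdown of mouse 2.

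Gm44751 was the member that fell. This lincRNA lies 590 bases from Ctsc, the gene of the lysosomal protease cathepsin C, on the same strand. It was at 4.28, 4.32 and 4.09 CPM in siCon, 1.84, 2.02 and 0.628 in siCebpa, and 2.97, 5.03 and 4.26 in the double knockdown. It fell by 1.45 ± 0.35 in siCebpa (adjusted p = 0.0419) and was higher in the double knockdown than in siCebpa (1.38 ± 0.35, adjusted p = 0.0264). Ctsc had 255, 236 and 235 CPM in siCon and 141, 151 and 73.3 in siCebpa, which missed the threshold (-0.94, adjusted p = 0.164). Every siCebpa library was below every siCon library in both genes.

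The members called higher in siCebpa were Gm26917, Gm42418, Gm49015 and 9530034E10Rik, of which the last was also called in siHnf4a (0.75 ± 0.18 in siCebpa, adjusted p = 0.0431, with 14.5, 14.1 and 10.7 CPM). Gm26917 (chromosome 17, 39843013 to 39846341) and Gm42418 (39846958 to 39848788) follow each other on the plus strand, and Gm42418 shares 96.3% of its words with the ribosomal RNA gene CT010467.1. Gm26917, with no shared word, was at 200, 186 and 172 CPM in siCon, 306, 662 and 271 in siCebpa (1.20 ± 0.26, adjusted p = 0.0324) and 431, 379 and 442 in the double knockdown (1.14 ± 0.26, adjusted p = 0.0157). Gm42418 was at 85.1, 78.0 and 69.8 CPM in siCon and 119, 156 and 117 in siCebpa (0.80 ± 0.14, adjusted p = 0.0124). In siHnf4a both were also above siCon in each mouse, by 0.65 and 0.45, and did not pass (adjusted p = 0.126 and 0.0508), Gm42418 passing with mouse as a block (adjusted p = 0.0234). The part of ribosomal RNA in the counts of Gm26917 and Gm42418 was not tested. Gm49015 shares all of its words with other genes (100%).

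**Figure D3:**
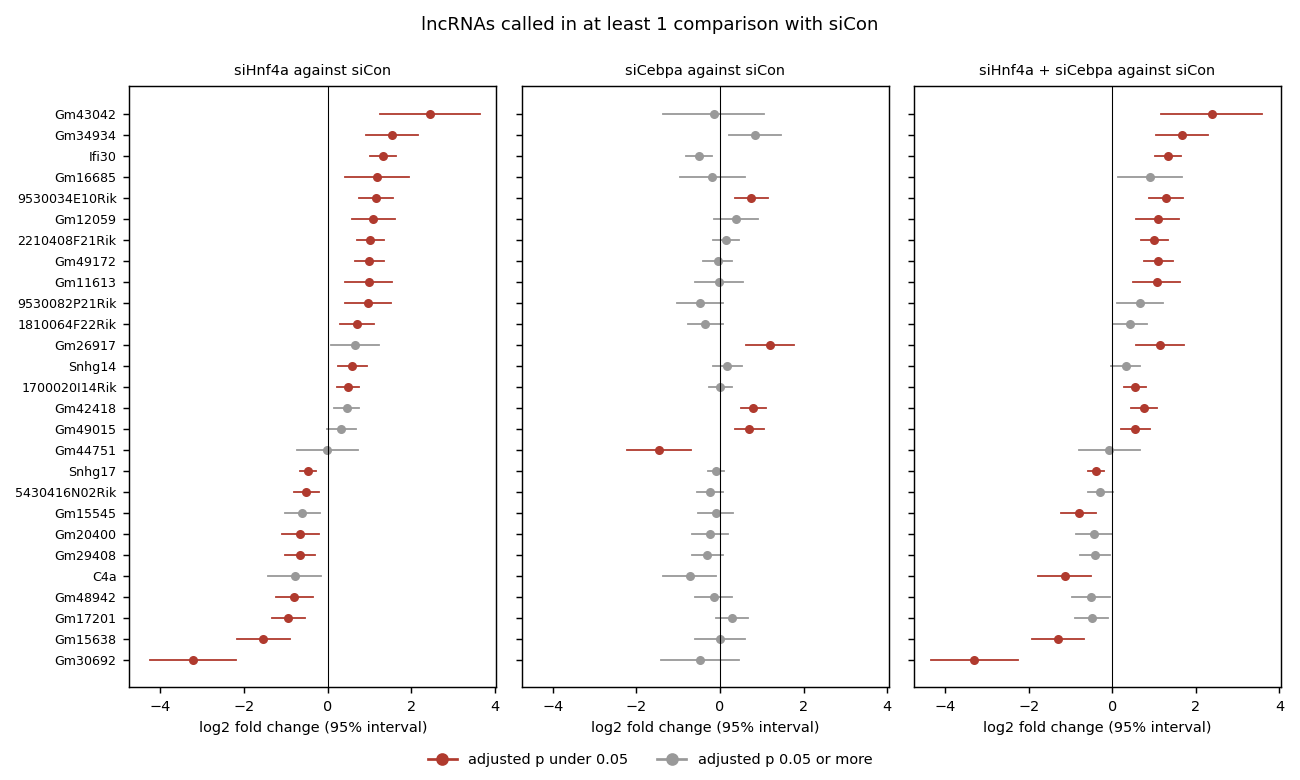
Log2 fold change against siCon (points) with its 95% interval (lines) for the 27 members called in at least 1 of the 3 comparisons, ordered by the change in siHnf4a, red where adjusted p was under 0.05. Gm30692 is lowest in siHnf4a and the double knockdown (-3.21 and -3.31), and 9530034E10Rik is red in all 3 panels.

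The double knockdown changed 17 members (8.37%, all genes 14%), 12 upward (5.91%, all genes 6.90%) and 5 downward (2.46%, all genes 7.13%). With mouse as a block there were 52 (32 higher, 20 lower; 29.5% of all genes). Leaving out siCon replicate 2 or 3 or the double knockdown of mouse 3 left 9, 11 and 11, and 9 calls held in all 19 alternatives. Gm12059 and Gm34934, members through their levels in the knockdown groups, are among these 9, and their calls are descriptions. Both comparisons use the same siCon libraries, so the 12 members called in one direction in siHnf4a and in the double knockdown, and the 4 called in siCebpa and in it, are given as counts only. Ifi30 rose by 1.33 ± 0.14, 9530034E10Rik by 1.29 ± 0.18, Gm49172 by 1.10 ± 0.16, Gm34934 by 1.66 ± 0.28 and 2210408F21Rik by 1.00 ± 0.14, and Gm15638 fell by 1.30 ± 0.28. 9530034E10Rik reached 25.3, 19.5 and 15.6 CPM.

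C4a and Gm15545 were called lower in the double knockdown and in neither single one, though for both the interaction did not pass. C4a, a complement C4 gene copy that shares 43.3% of its words with its paralog C4b, went from 21.8, 26.3 and 26.3 CPM to 13.5, 8.41 and 12.3 (-1.14 ± 0.29, adjusted p = 0.0245). In siHnf4a it was at 18.4, 15.0 and 10.2 CPM (-0.79, adjusted p = 0.095), with mouse as a block it passed in siHnf4a and in siCebpa as well (adjusted p = 0.0239 and 0.0488), and the split of reads within such a pair is uncertain. Gm15545, antisense to Bcl2l12, fell by 0.80 ± 0.19 (adjusted p = 0.0179), and in siHnf4a it passed with mouse as a block (adjusted p = 0.0208).

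No member was called when siCebpa was added to siHnf4a. Cebpa itself was at 83.8 to 113 CPM in the double knockdown, 207 to 236 in siHnf4a and 24.7 to 32.5 in siCebpa. Against siHnf4a alone 0 members passed edgeR (0.00663% of all genes), and 0 passed DESeq2. Against siCebpa alone 18 members passed (11 higher, 7 lower; 13% of all genes), and 53 with mouse as a block (27.3% of all genes). This count rested on the fit, with 5 when only the 6 compared libraries entered, and 6, 8 and 9 without siCebpa replicate 3, the double knockdown of mouse 2 or that of mouse 3. Ifi30 had the smallest adjusted p here (1.83 ± 0.14, adjusted p = 5.11e-05). Tug1, a widely expressed lncRNA of nucleus and cytoplasm, was 0.31 ± 0.09 higher (adjusted p = 0.0429), a call that ended in 9 of the fits that left out a library.

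The interaction asks whether the double knockdown departs from the sum of the single effects on the log2 scale. No member passed edgeR (0.0861% of all genes), and DESeq2 called 0. With mouse as a block 3 were called (3.82% of all genes): Zfp469 (0.62, adjusted p = 0.033), Gm35279 (1.44, adjusted p = 0.0365) and Gm11175 (-10.02, adjusted p = 0.0167). Gm11175 shares 97.0% of its words with Jund, so its values are uncertain. It is another of the 7 members below 3 CPM in every siCon library, so the values that chose it also enter this call, which is a description. It was at 0.240, 0.0380 and 0 CPM in siCon, 4.29, 3.97 and 21.9 in siHnf4a, 23.9, 14.6 and 26.4 in siCebpa, and 0, 0 and 14.1 in the double knockdown, so that libraries of 1 group ranged from 0 to 14.1.

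Of 26 listed host genes of snoRNAs 16 were members. In siHnf4a 1 rose and 1 fell, where 14.5% of all tested genes were called, and with mouse as a block 1 rose and 3 fell (30.0% of all genes). In siCebpa 0 passed (4.67% of all genes), with and without the block, and in the double knockdown 1 fell (14% of all genes). The list median was -0.16, 0.04 and -0.04 in the 3 comparisons, beside 0.000173, 0.00125 and 0.000494 over all genes. Snhg17 fell as described, and Snhg14, the long host of the imprinted Snord115 and Snord116 clusters, rose from 2.67, 2.83 and 2.85 CPM to 4.24, 4.09 and 4.49 (0.59 ± 0.16, adjusted p = 0.0287), a call that ended in 9 of 19 alternatives. Gas5, a highly expressed host, stood at 139, 109 and 101 CPM in the siCon libraries of mice 1, 2 and 3 and at 135, 109 and 101 in siHnf4a, nearly the same in each mouse (-0.03 ± 0.17, 95% interval -0.41 to 0.35). The 10 core proteins of snoRNA particles had 0 calls in siHnf4a. In siCebpa 2 of the 10 rose, Nop10 (0.41) and Nhp2 (0.44) of the H/ACA particle, where 4.67% of all genes were called, and 4 rose with mouse as a block (16.8%). In the double knockdown 1 rose, Nop10 (0.29). Of 14 genes of nonsense-mediated decay, which degrades many spliced host transcripts, 2 fell in siHnf4a, Casc3 (-0.64) and Rbm8a (-0.42) of the exon junction complex, a share near the 14.5% of all genes. The block gave 1 that rose and 3 that fell.

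Of the nuclear architecture and X inactivation list, 7 of 10 genes were members, and 0 passed in any comparison with siCon. With mouse as a block 2 of the 7 rose in siHnf4a, Neat1 and Malat1, a share near the 30.0% of all genes in that fit. Neat1, the scaffold of paraspeckles, was at 121, 58.0 and 61.7 CPM in siCon and at 232, 137 and 112 in siHnf4a. It was higher in siHnf4a in each mouse, and the groups overlap since mouse 1 in siCon exceeded mouse 3 in siHnf4a. The difference of 0.98 ± 0.46 did not pass (adjusted p = 0.187) and passed with mouse as a block (1.00, adjusted p = 0.000124). In the double knockdown the values were 210, 97.7 and 107 CPM (0.75, adjusted p = 0.317, with the block 0.00064). Malat1 was at 231, 211 and 268 CPM in siCon and 265, 377 and 422 in siHnf4a (0.57 ± 0.27, adjusted p = 0.189, with the block 0.0155).

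Of 15 paraspeckle protein genes 1 rose in siHnf4a, Pspc1 (0.74 ± 0.21, adjusted p = 0.0361), where 14.5% of all genes were called. With mouse as a block 2 rose and 1 fell (30.0% of all genes). In siCebpa 1 of the 15 fell, Hnrnpk (-0.33, adjusted p = 0.0495), where 4.67% of all genes were called. With the block 1 fell as well (16.8%). In the double knockdown 1 rose (14% of all genes), and with the block 2 rose and 1 fell (29.5%). Xist was present in all 12 libraries at 453 to 866 CPM, and Ftx, Firre, 2900097C17Rik and Kcnq1ot1 did not pass in any comparison with siCon, as was the case for Peg13 of the imprinted list, for the microRNA hosts Mir22hg and Mir17hg, and for Pvt1 and 1810008I18Rik of the liver and metabolism list.

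AW112010, an interferon-induced transcript with no shared words, was at 89.1, 28.2 and 19.8 CPM in siCon, 150, 136 and 114 in siHnf4a, 58.4, 33.9 and 10.8 in siCebpa and 140, 135 and 76.9 in the double knockdown. All siHnf4a libraries exceeded all siCon libraries, yet the difference of 1.53 ± 0.60 did not pass (adjusted p = 0.116) and passed with mouse as a block (1.81, adjusted p = 0.00333). In siCon it was over 3-fold higher in mouse 1 than in mouse 2 or 3. Summed macrophage markers, most of them Cd68, were also highest in mouse 1, at 353 to 560 TPM in mouse 1, 80.3 to 171 in mouse 2 and 71.2 to 140 in mouse 3. Without Cd68 the macrophage sums of the 3 mice overlapped (4.54 to 15.1, 3.32 to 7.94 and 5.98 to 25.7 TPM). The part of macrophages in AW112010 was not tested.

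**Figure D4:**
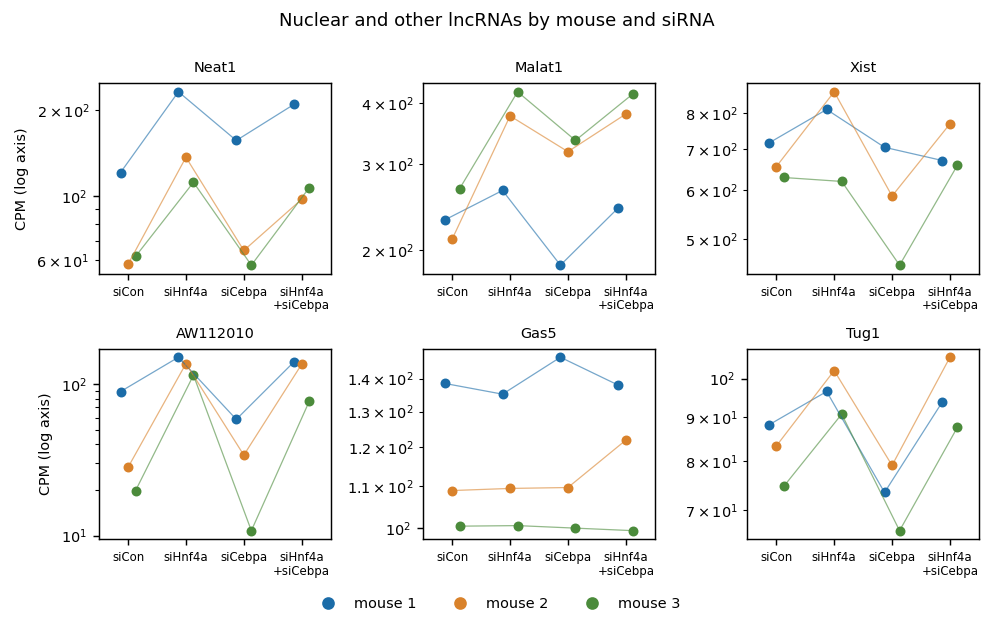
CPM (log axes with different ranges) of Neat1, Malat1, Xist, AW112010, Gas5 and Tug1 by siRNA group, with points and lines coloured by mouse. The lines of Neat1 run nearly parallel with mouse 1 on top, and those of Gas5 stay apart in the order of mouse 1, 2 and 3.

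Many members differed between the mice. With the siRNA group in the model, 69 of 203 members (34%) differed between the 3 mice, where 26.8% of all tested genes and 29.7% of protein-coding genes with at least 3 CPM did (F-test of the mouse terms, edgeR, adjusted p under 0.05). Leaving out 1 library gave 56 to 73. Members were highest in mouse 1 and lowest in mouse 3 in 29 of the 69 and the reverse in 28. The median log2 difference between the highest and lowest mouse was 0.34 over the members and 0.27 over all genes.

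Gm4316 had the largest difference, 4.32 on the log2 scale (adjusted p = 2.71e-07), with 7.90, 21.1 and 121 CPM in the siCon libraries of mice 1, 2 and 3 and 8.66, 24.3 and 202 in siHnf4a. Over all 4 groups the libraries of the 3 mice did not overlap. AC158975.2 (16.8 to 24.9 CPM in mouse 1 and 99.9 to 193 in mouse 3), Gm42428 (2.89), AC102496.1 (2.45) and Gm43305 (2.22) also ran from mouse 1 at the low end to mouse 3 at the high end. These share sequence among themselves: 27.3% of the words of AC102496.1 and 6.14% of those of Gm43305 lie in Gm4316, and 68.0% of those of Gm42428 lie in Gm43305. Lncenc1, an lncRNA named for its expression in embryonic stem cells, went the other way (1.87, adjusted p = 4.82e-06). It was at 14.3, 3.91 and 4.96 CPM in siCon and 23.5, 6.77 and 5.72 in siHnf4a, with only 0.334% of its words shared.

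Cell-type markers differed between the mice as well, the cholangiocyte sums resting largely on Spp1. Over the 4 groups, cholangiocyte markers summed to 24.7 to 66.5 TPM in mouse 1, 93.6 to 207 in mouse 2 and 108 to 282 in mouse 3, endothelial markers to 24.8 to 41.5, 38.6 to 58.5 and 50.6 to 73.0, and hepatocyte markers to 7592 to 12486, 5030 to 10115 and 4507 to 6848. Their part in the differences between mice was not tested. The labels give 1 number per culture, read here as a mouse, so mouse and isolation cannot be told apart.

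**Figure D5:**
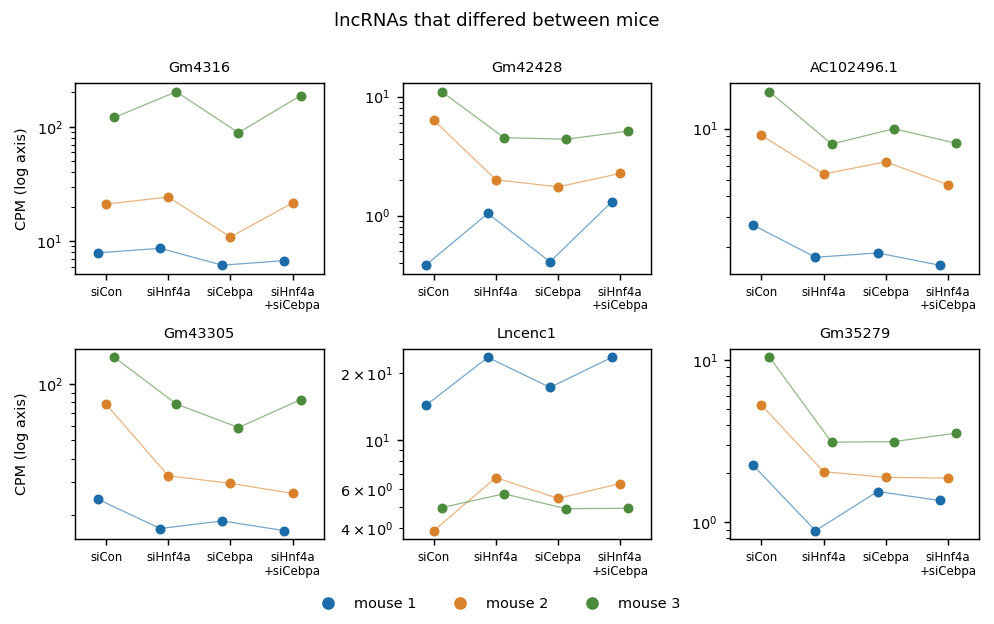
CPM (log axes with different ranges) of 6 members that differed between mice, by siRNA group, coloured by mouse. Gm4316, Gm42428, AC102496.1, Gm43305 and Gm35279 are lowest in mouse 1 and highest in mouse 3 in each group, and Lncenc1 is highest in mouse 1.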

How the data were processed

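RNA from 12 libraries of primary mouse hepatocytes, 3 per group, was sequenced on a BGISEQ-500, per the labels' protocols. The authors deposited 2 values per gene and library, an expected count without normalisation and a TPM, which is scaled by length and depth. The notes of the submitters (submitters' processing notes) name kallisto 0.4.6, Trim Galore 0.6.4 and GRCm38.p6. Annotation release, strand setting and filters: not given in the sources used here. Of 55385 gene identifiers, 55144 matched GENCODE M21 without the version (54487 with it) and 241 did not.

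Expected counts were rounded and fitted in R 4.3.3 with edgeR 4.0.16 (filterByExpr over the 4 groups, TMM, quasi-likelihood test, 1 mean per group, 8 residual degrees of freedom). All p-values were computed here, two-sided, and adjusted over all 15090 tested genes with a threshold of 0.05. Values after ± are standard errors of log2 fold changes. Differences between mice were tested as 2 mouse terms added to the group means. The sample titles number the hepatocyte cultures, each number was read here as a mouse, and every number is in each group. Residuals of 18 same-mouse pairs correlated with r from 0.156 to 0.684, and 12 of 12 libraries correlated best with their own mouse, so the block is given where it changes a call. The 3 libraries of a group come from separate mice and differed by more than counting noise (chi-square per gene 20.1 to 150.7).

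Alternatives were DESeq2 1.42.0, RLE scaling, no filter, a filter of at least 1 CPM in 3 libraries, mouse as a block (6 degrees of freedom), only the groups compared, limma 3.58.1 on log2(TPM + 1) of genes with at least 1 TPM in 3 libraries, and leaving out each library. A restriction to members with under 50% of their 31-mers in other genes was added after the data were seen. Sequence comparison used GENCODE M21 transcripts on both strands. The code was tested on simulated data. Members, lists and named genes were chosen with earlier results of these data known. The naming rule took the 12 highest members by TPM, up to 8 called members in each direction with 1 sign in all 3 mice, the 6 with the largest spread between mice, listed genes, the 3 on each side of the level threshold, and their neighbouring genes. Not every gene it takes is printed. Named outside it, after their values were seen, were 1700020I14Rik, 1810064F22Rik, Gm11175, Gm35279, Ptpmt1, Tctn2, Tmem134, Tug1 and Zfp469. Further steps used Python 3.11.15 with pandas 2.3.3 and matplotlib 3.10.9. One result on a protein-coding gene is not reported here.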

Additional observations from a re-analysis of the deposited data

How the results depend on the processing

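No named member's call reversed its direction under an alternative. Changes near 0 that were not called, such as that of Gas5 in siHnf4a, are not covered by this. With mouse as a replicate block, called members against siCon numbered 54 (siHnf4a), 24 (siCebpa) and 52 (double knockdown). The double knockdown had 53 against siCebpa, the interaction had 3, and each set held all calls of the fit without the block. DESeq2 called 10 for siCebpa, and 28 for the double knockdown when set against siCebpa. With only the groups compared these were 1 and 5, and the restriction on shared words, added after seeing the data, left 3 in siCebpa. Leaving out 1 library gave 10 to 25 calls for siHnf4a, 0 to 6 for siCebpa, 9 to 19 for the double knockdown, 6 to 22 for it against siCebpa, 0 to 1 for the interaction (1 without the double knockdown of mouse 3), 0 to 0 for the double knockdown against siHnf4a and 56 to 73 between mice. These fits have fewer samples. RLE scaling and the other filters on low counts moved none of these 7 counts by over 1.5 times. The fit on only the groups compared could not be made for the interaction or for the mice. The level of 3 CPM stands for 67.4 to 75.0 counts in a library, which limits what change can be seen in the lowest members.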
